A study of Mus musculus with 4 samples.

Results

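The 10 genes that write, erase and guard DNA methylation were followed in mouse blastocysts edited in Ywhaz and in control blastocysts. They were taken by symbol from the deposited table, and all 10 were found among its 22013 genes. They are the methyltransferase genes Dnmt1, Dnmt3a and Dnmt3b, their non-catalytic relative Dnmt3l, the maintenance factor Uhrf1, the demethylating dioxygenase genes Tet1, Tet2 and Tet3, and the guardians Dppa3 and Zfp57. Poly(A) RNA was sequenced from 2 knockout libraries and 2 control libraries, each made from a pool of 5 blastocysts of strain C57BL/6. Knockout embryos received CRISPR-Cas9 against Ywhaz, the gene of 14-3-3 zeta, at the zygote stage, per the labels, although their library names carry the prefix si, which the labels do not explain. For the control embryos the labels name Cas9 protein without a guide in one place, a control guide RNA in another and no treatment elsewhere. All embryos came from superovulated C57BL/6 females mated within the strain and were cultured in vitro. The edited alleles of the pooled embryos were not analysed here. The labels do not say whether pools of one group had separate parents, so a p-value here measures pool-to-pool spread only, and that spread may be technical.

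DNA methylation is the addition of a methyl group to cytosine, mostly where a guanine follows. Dnmt3a and Dnmt3b place new methyl groups, and Dnmt3l has no activity of its own but stimulates both. Dnmt1 copies the mark to the new strand after replication, guided by Uhrf1, which binds DNA methylated on one strand. Tet proteins oxidise 5-methylcytosine, which leads to its loss. The preimplantation embryo loses most of the methylation inherited from the gametes, while imprinted regions keep theirs. Dppa3, also called Stella or PGC7, shields the maternal genome in the zygote and restrains Uhrf1 in the oocyte. Zfp57 binds a methylated motif at imprinted regions and recruits Trim28.

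The promoters of Tet2, Dnmt3a and Uhrf1 are shown because these were the genes whose knockout and control values did not overlap, and because the CpG pairs in them are the letters on which all these enzymes act. Each is the 250 bases before a RefSeq transcript start, on build GRCm38.p6, written 5′ to 3′ on the gene's strand with every CpG in capitals. Tet2 lies at chr3:133544391-133544640 on the minus strand, in a repeated stretch inside the annotated gene that overlaps no annotated exon. The upstream Dnmt3a window lies at chr12:3806730-3806979 and the internal one at chr12:3891494-3891743, both on the plus strand. The internal start is the kind known to give the shorter isoform Dnmt3a2, and gene-level values do not separate the isoforms. Uhrf1 lies at chr17:56303087-56303336 on the plus strand. The last 16 bases of the internal Dnmt3a window and of the Uhrf1 window fall in annotated exons.
Tet2: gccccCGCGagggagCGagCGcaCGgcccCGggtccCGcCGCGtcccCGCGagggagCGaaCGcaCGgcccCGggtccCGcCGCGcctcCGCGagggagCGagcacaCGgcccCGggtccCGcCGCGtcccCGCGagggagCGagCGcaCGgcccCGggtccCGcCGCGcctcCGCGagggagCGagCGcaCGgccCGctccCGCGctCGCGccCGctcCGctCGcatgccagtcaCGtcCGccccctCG
Dnmt3a upstream: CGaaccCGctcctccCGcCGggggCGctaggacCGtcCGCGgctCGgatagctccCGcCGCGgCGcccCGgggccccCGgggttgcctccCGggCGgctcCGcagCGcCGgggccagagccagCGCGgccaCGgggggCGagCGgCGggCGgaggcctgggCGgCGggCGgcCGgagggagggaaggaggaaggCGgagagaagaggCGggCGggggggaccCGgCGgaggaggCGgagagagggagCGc
Dnmt3a internal: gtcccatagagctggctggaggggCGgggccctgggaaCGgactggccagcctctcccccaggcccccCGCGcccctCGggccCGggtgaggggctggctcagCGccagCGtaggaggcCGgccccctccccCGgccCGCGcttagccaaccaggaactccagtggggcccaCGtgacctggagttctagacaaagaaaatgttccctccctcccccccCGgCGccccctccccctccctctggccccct
Uhrf1: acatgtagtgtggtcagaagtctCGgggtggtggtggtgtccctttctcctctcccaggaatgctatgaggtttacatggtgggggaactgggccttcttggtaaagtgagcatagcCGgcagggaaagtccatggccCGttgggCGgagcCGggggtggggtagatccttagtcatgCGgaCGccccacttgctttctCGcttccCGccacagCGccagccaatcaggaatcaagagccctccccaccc
The Tet2 window held 51 CpGs, a count reached by 0.067% of the 32851 promoter windows in the table, whose median was 6. The upstream Dnmt3a window held 38, the internal one 15 and the Uhrf1 window 10. The motif GGGCGG, a binding sequence of the SP1 family, was counted on both strands and occurred in 32.7% of all windows. It occurred 5 times in the upstream Dnmt3a window and once each in the other 3 printed windows.

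RefSeq windows were matched for 9 of the 10 genes, all but Dppa3, with 18 starts between them. CpG content differed widely within the set. The most upstream Dnmt1 window, before the start known to serve the oocyte, held 2 CpGs, against 7 and 26 at the other 2 starts. The Dnmt3l windows held 5, 4 and 3, and the Zfp57 windows 6, 7 and 3. Dnmt3b had 21, Tet3 17 and Tet1 15, and a further Uhrf1 start had 30. CCAAT, searched on both strands, was found in 33.8% of all windows and TATAAA in 12.4%. Of the 4 printed windows only that of Uhrf1 held CCAAT, and none held TATAAA. No methylation was measured in these embryos, and the sequences say nothing of which factors were bound.

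The values are FPKM, fragments per kilobase of transcript and per 1000000 fragments sequenced, so levels can be compared between genes. The step between low FPKM values put the depth at an estimated 17.2 to 18.3 in units of 1000000 fragments per library, with 15212 to 15490 genes above 0. Ywhaz itself stood at 32.7 and 98.2 FPKM in knockout libraries 1 and 2, against 143 and 123 FPKM in control libraries 1 and 2. Its log2 fold change on the log2(FPKM + 1) scale was −1.21 ± 0.39 (SE; limma adjusted p = 0.305). Without knockout library 1 it was −0.43, and without knockout library 2 it was −1.99, in fits that leave 1 library in the knockout group. Both knockout pools lay below both control pools, and the knockout pools differed from each other more than the control pools did.

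The markers of the blastocyst's own cell types differed between the pools as well, and none of those tested passed over all genes. Epiblast markers summed to 511 and 568 FPKM in knockout libraries and to 475 and 441 FPKM in control libraries. The sum covers the 10 of 11 listed that the table holds, with Pou5f1 the largest member. Of 9 tested, 6 had a positive log2 fold change and the median was 0.18. The pluripotency factors Pou5f1 (0.68) and Nanog (0.54), and Zfp42 (0.24), were above both control libraries in both knockout libraries. Gdf3 (−0.27) lay below both control libraries, at 48.4 and 57.8 against 66.5 and 61.8 FPKM. Among all genes tested, the groups did not overlap in 41.4%. Trophectoderm markers summed to 524 and 749 against 642 and 545 FPKM, with Id2 the largest member. Of 12 tested, 8 were positive and the median was 0.25. Hand1, a trophoblast transcription factor, measured 4.33 and 5.19 FPKM in knockout libraries, against 1.11 and 1.14 FPKM in control libraries (log2 fold change 1.44, limma adjusted p = 0.0982). Krt18 (0.60), Tfap2c (0.69) and Tead4 (0.34) also lay above both control libraries in both knockout libraries, and Elf5 (−0.64) lay below them. Primitive endoderm markers summed to 440 and 651 against 577 and 415 FPKM, most of it Dab2. Of 8 tested, 7 were negative and the median was −0.16. Sparc (−1.18), Sox17 (−0.74) and Cubn (−0.24) lay below both control libraries in both knockout libraries. So did Gata4 and Sox7, which were too low to be tested, with Gata4 at 0.420 and 0.573 against 1.14 and 1.24 FPKM. The part of these markers in the results below was not tested. Of 12 oocyte markers only Zp3 and Figla reached a mean of 1 FPKM, and of 10 cumulus and granulosa markers only Amhr2 did, with Has2 and Cyp19a1 at 0 in all libraries. In pools of whole embryos, fewer cells of a type and less RNA per cell cannot be told apart.

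Transcript levels of the 10 genes spanned several orders of magnitude. Averaged over the 4 libraries, Dppa3 came first at 6388 FPKM, followed by Dnmt3l at 78.1 and Tet1 at 20.5. Zfp57 followed at 9.70, Tet2 at 6.74, Dnmt3b at 5.30, Uhrf1 at 4.40, Dnmt3a at 2.42 and Dnmt1 at 1.52 FPKM. Tet3 came last at 0.147 FPKM. From Zfp57 down to Dnmt1, the library values of each gene overlapped those of the next in this order. The values of Dppa3, Dnmt3l, Tet1 and Tet3 overlapped with no neighbour's. The set was therefore led by a guardian, a stimulating cofactor and one dioxygenase, while the maintenance methyltransferase was near the bottom.

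**Figure D1:**
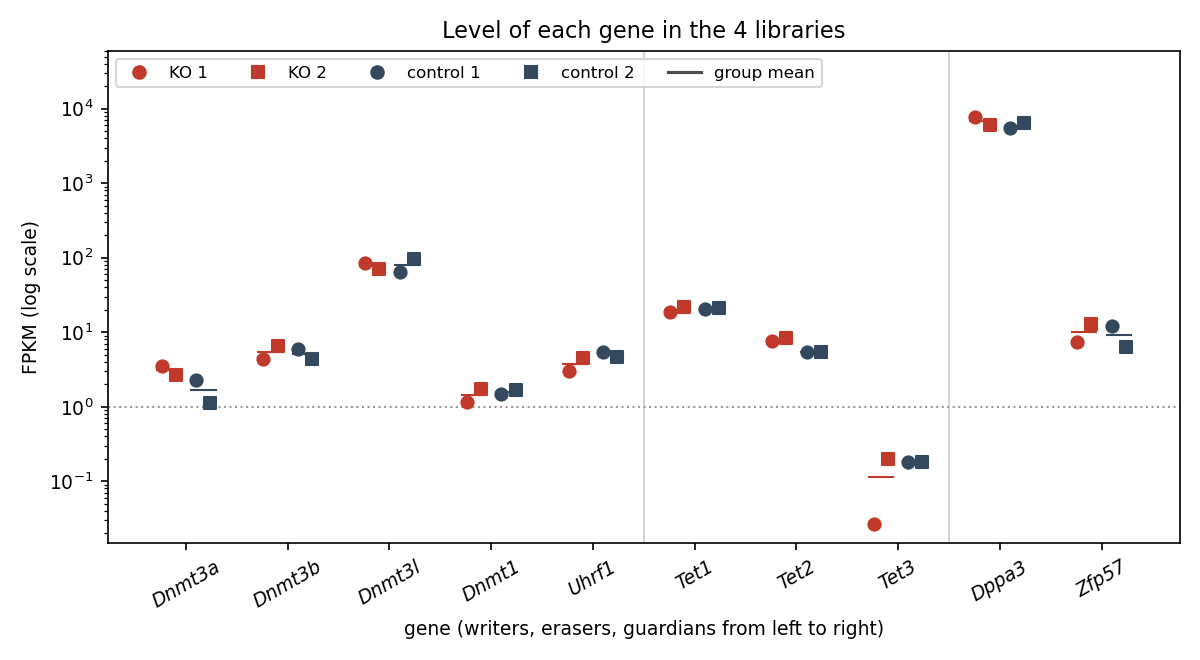
FPKM of each of the 10 genes (log axis) in knockout libraries 1 and 2 (red circle and square) and control libraries 1 and 2 (dark circle and square), with group means as short lines and 1 FPKM dotted. Dppa3 averages 6388 FPKM and Tet3 0.147 FPKM, and Tet2, Dnmt3a and Uhrf1 are the tested genes whose groups do not overlap.

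None of the 10 genes passed the test over all genes between knockout and control pools. The test was limma on log2(FPKM + 1) with Benjamini-Hochberg adjustment, at a threshold of 0.05, over the 9544 genes that averaged 1 FPKM or more. Of the members, 9 met that minimum, and Tet3 did not. Of all genes tested, 0.0733% passed, and 0 of the 9 members did, with the smallest adjusted p at 0.444. At an unadjusted p under 0.05 limma had 1 of 9, Dnmt3a, against 11.1% of all genes. An FDR under 0.05 was given to 0.241% of genes in the authors' deposited table, and to none of the 10 members. In FPKM, groups did not overlap in 3 of the 9 tested members, against 41.4% of all genes. Knockout pools were higher in 2 of these, Dnmt3a and Tet2, against 27.4% of all genes, and lower in 1, Uhrf1, against 14.0%. Shares this close to the background are no result about the set. The median log2 fold change of the 9 was 0.047, as was that of all genes tested.

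Among the de novo writers, Dnmt3a was higher in both knockout pools. Dnmt3a measured 3.58 and 2.69 FPKM in knockout libraries 1 and 2, against 2.29 and 1.11 FPKM in control libraries 1 and 2. The lower knockout value lay above the higher control value, but control library 2 stood apart from control library 1 by 2.06-fold. The means were 3.13 ± 0.62 and 1.70 ± 0.83 FPKM (SD, n = 2 each). The log2 fold change was 0.64 ± 0.29 (SE), with a 95% interval of 0.0070 to 1.28, an unadjusted p of 0.0479 and a limma adjusted p of 0.444. Of all genes tested, 4.43% had a fold change at least as high. Without control library 2 it was 0.32 and without control library 1 it was 0.96, so its size rests largely on which control pool is used. In the authors' deposited table Dnmt3a had a log2 fold change of 0.88, a p-value of 0.0345 and an FDR of 0.711. An antisense gene, Dnmt3aos, shares 133 exonic bases with it, and whether counting used strand was not stated in the labels.

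Dnmt3b, the other de novo enzyme, showed no direction. Dnmt3b measured 4.36 and 6.48 FPKM in knockout libraries, against 5.95 and 4.41 FPKM in control libraries. Each group held one high and one low pool. Its log2 fold change was 0.047 with an interval of −0.57 to 0.66 (limma adjusted p = 0.972). Dnmt3l was an order of magnitude above its catalytic partners, with 84.0 and 69.7 FPKM in knockout libraries and 63.7 and 94.8 FPKM in control libraries. The control pools enclosed both knockout pools, and the log2 fold change was −0.023 with an interval of −0.53 to 0.48 (limma adjusted p = 0.985). The ratio of Dnmt3l to Dnmt3a plus Dnmt3b was 10.6 and 7.59 in knockout libraries, against 7.73 and 17.2 in control libraries. The rodent-specific germline methyltransferase gene Dnmt3c reached at most 0.24 FPKM in any library.

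Dnmt1 was the least abundant writer on average, though not in control library 2, where Dnmt3a was lower, and Uhrf1 was lower in both knockout pools. Dnmt1 measured 1.16 and 1.74 FPKM in knockout libraries, against 1.47 and 1.70 FPKM in control libraries. Knockout library 1 was the lowest and knockout library 2 the highest of the 4, and the log2 fold change was −0.088 with an interval of −0.63 to 0.46 (limma adjusted p = 0.929). Uhrf1 measured 3.05 and 4.46 FPKM in knockout libraries, against 5.46 and 4.64 FPKM in control libraries. In FPKM both knockout pools lay below both control pools, although knockout library 2 and control library 2 were close. All FPKM summed to 86.7% of 1000000 in knockout library 2 and to 94.5% in control library 2. Divided by these sums, as in TPM scaling, Uhrf1 in knockout library 2 lies above control library 2, so the groups overlap. With median-of-ratios scaling it stays below. The means were 3.75 ± 0.99 and 5.05 ± 0.58 FPKM (SD, n = 2 each), and the log2 fold change was −0.36 ± 0.26 (SE; interval −0.95 to 0.23, limma adjusted p = 0.663). Without knockout library 1 it was −0.15, and without knockout library 2 it was −0.58. Knockout library 1, the pool with the lowest Ywhaz, also had the lowest Dnmt1, Dnmt3b, Uhrf1, Tet1 and Tet3 values and the highest Dnmt3a and Dppa3 values. Its Dnmt3b value was close to that of control library 2. This is a description of 1 pool, and a relation to Ywhaz was not tested.

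S-phase genes were set beside Uhrf1 as a list. Of 14 listed, all were tested, and 11 had a positive log2 fold change, where 56.0% of all genes did. The median was 0.18, against 0.047 for all genes, with none past the threshold. Their sum was 1131 and 1436 FPKM in knockout libraries, against 1205 and 1139 FPKM in control libraries. Most of this sum was Rrm2 and Tyms. In FPKM it was lowest in knockout library 1, where Uhrf1 was lowest too, but control library 2 was close. With TPM scaling control library 2 is lowest, and with median-of-ratios scaling control library 1. The part of the S-phase sum in the Uhrf1 values was not tested. Cdc6 (log2 fold change 0.66, limma adjusted p = 0.377) and Mcm6 (0.63, limma adjusted p = 0.411) lay above both control libraries in both knockout libraries. So did Mcm2, Mcm3, Mcm5 and Mcm7, while Pcna and Chaf1b lay below. Pcna, the replication clamp that brings Dnmt1 to the fork, was 1 of 3 with a negative fold change. Pcna measured 92.6 and 134 FPKM in knockout libraries and 147 and 170 FPKM in control libraries. Its groups did not overlap and its log2 fold change was −0.50 (limma adjusted p = 0.433), or −0.23 without knockout library 1 and −0.76 without knockout library 2.

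Tet2 was higher in both knockout pools while Tet1 was not. Tet2 measured 7.70 and 8.46 FPKM in knockout libraries, against 5.44 and 5.36 FPKM in control libraries. Replicates lay close together in both groups, within 1.10-fold in knockout and 1.02-fold in control pools. The means were 8.08 ± 0.53 and 5.40 ± 0.057 FPKM (SD, n = 2 each), a ratio of 1.50. The log2 fold change was 0.50 ± 0.24 (SE), with an interval of −0.029 to 1.04, an unadjusted p of 0.0613 and a limma adjusted p of 0.475. Changing the pseudocount or scaling, or leaving out a library, moved it between 0.39 and 0.57. The filter, trend and block settings cannot move it, and with groups that do not overlap a left-out library cannot reverse it. It passed the threshold in no setting with all 4 libraries. In the authors' deposited table Tet2 had a log2 fold change of 0.58, a p-value of 0.0178 and an FDR of 0.558. An antisense gene, Gm42567, shares 43 exonic bases with Tet2.

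Tet1 was the main Tet transcript of these blastocysts. Tet1 measured 18.5 and 21.7 FPKM in knockout libraries, against 20.6 and 21.2 FPKM in control libraries. The knockout pools enclosed the control pools, and the log2 fold change was −0.057 with an interval of −0.53 to 0.42 (limma adjusted p = 0.955). Tet3, the form known to act in the zygote, was near the detection limit. Tet3 measured 0.027 and 0.198 FPKM in knockout libraries, against 0.183 and 0.179 FPKM in control libraries. Knockout library 1 stood apart from the other 3, which lay close to each other. At the estimated depths and a transcript of 10904 nt these values stand for about 5.22 and 36.5 fragments in knockout libraries, and 35.7 and 35.1 in control libraries. Without the filter on low values, Tet3 had a log2 fold change of −0.090 (limma adjusted p = 0.813).

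Within the Tet family, the share held by Tet2 separated the groups and the summed level did not. Tet1 differed little between groups and Tet3 was near 0, so this share largely restates the Tet2 difference above. For FPKM of single genes, 41.4% of all genes tested had groups that did not overlap. Tet2 supplied 29.4% and 27.8% of the summed Tet FPKM in knockout libraries, against 20.7% and 20.0% in control libraries. The means were 28.6% ± 1.08 and 20.4% ± 0.48 (SD, n = 2 each), a difference of 8.20 percentage points, larger than the spread within either group. Leaving out any 1 library gave 7.43 to 8.97 points. The ratio of Tet1 to Tet2 was 2.40 and 2.57 in knockout libraries, against 3.79 and 3.95 in control libraries. A two-sided exact permutation test of the Tet2 share gave p = 0.333, the smallest that 2 against 2 libraries allow. Such shares are taken within a library, so scaling between libraries does not move them. The summed Tet FPKM was 26.2 and 30.4 in knockout libraries, against 26.3 and 26.7 in control libraries (exact permutation p = 1). The epiblast sum, with Pou5f1 its largest member, was likewise higher in both knockout libraries than in either control library. The S-phase, trophectoderm and primitive endoderm sums were highest in knockout library 2. The part of these 4 sums in the Tet2 values was not tested.

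**Figure D2:**
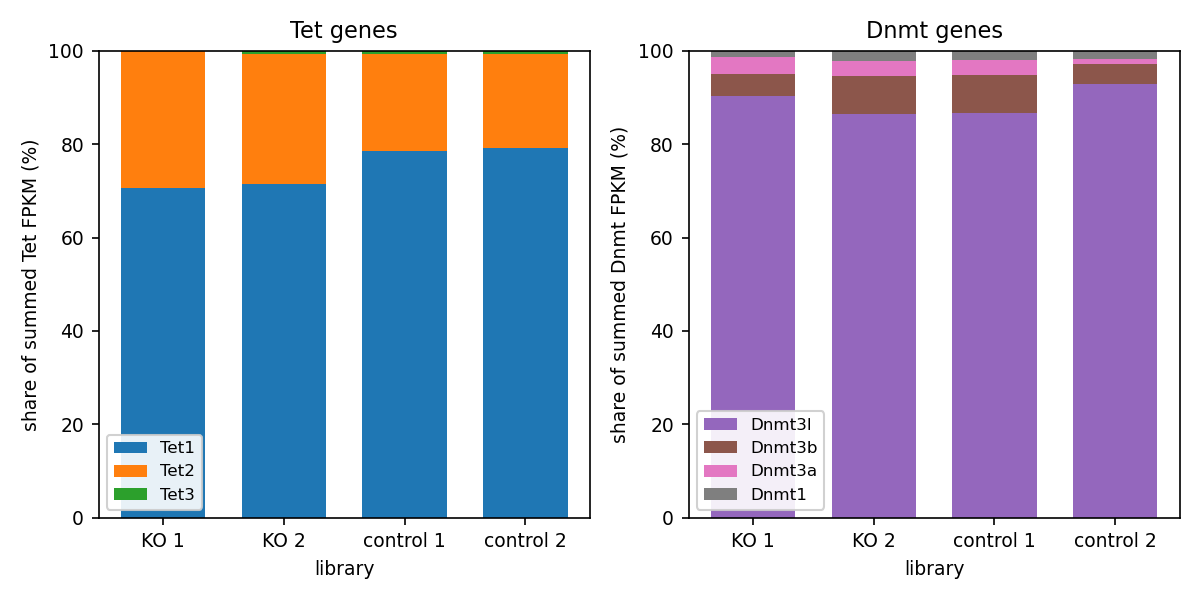
Share of the summed FPKM (percent, axis from 0 to 100) held by each Tet gene (left) and each Dnmt gene (right) in knockout libraries 1 and 2 and control libraries 1 and 2. Tet2 holds 29.4% and 27.8% in knockout libraries against 20.7% and 20.0% in control libraries, and Dnmt3l holds most of the Dnmt sum in every library.

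Within the Dnmt family, Dnmt3l held 90.2% and 86.4% of the summed FPKM in knockout libraries, against 86.8% and 92.9% in control libraries. Dnmt3a held 3.84% and 3.34%, against 3.12% and 1.09%. These Dnmt3a groups did not overlap, but the knockout value of 3.34% and the control value of 3.12% were close (two-sided exact permutation p = 0.333, the smallest possible). The ratio of Dnmt3b to Dnmt3a was 1.22 and 2.41 in knockout libraries, against 2.60 and 3.97 in control libraries. The summed FPKM of the 5 writers, Uhrf1 included, was 96.1 and 85.0 in knockout libraries, against 78.9 and 107 in control libraries (exact permutation p = 1).

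Dppa3 was the most abundant of the 10 genes, and its groups overlapped in FPKM but not as a share of all FPKM. Dppa3 measured 7647 and 6062 FPKM in knockout libraries, against 5432 and 6411 FPKM in control libraries. By FPKM it ranked 10th and 11th of all genes in knockout libraries and 15th and 13th in control libraries. It made up 0.818% and 0.700% of all FPKM in knockout libraries, against 0.604% and 0.678% in control libraries. These shares did not overlap (two-sided exact permutation p = 0.333, the smallest possible), and neither did the ranks. Such a share is the same as TPM scaling, and with median-of-ratios scaling the groups overlap. In FPKM, groups did not overlap in 41.4% of all genes tested, and on the scale of shares this was not counted. In FPKM the higher control value lay above the lower knockout value. The log2 fold change was 0.21 with an interval of −0.21 to 0.62 (limma adjusted p = 0.734). It was 0.039 without knockout library 1 and 0.37 without knockout library 2. The ratio of Dppa3 to Uhrf1, a pair known to oppose each other in the oocyte, was 2506 and 1360 in knockout libraries, against 995 and 1380 in control libraries.

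Zfp57 split each group. Zfp57 measured 7.36 and 12.8 FPKM in knockout libraries, against 12.3 and 6.34 FPKM in control libraries. The higher pool exceeded the lower by 1.74-fold in knockout and by 1.94-fold in control libraries, where the median gene tested differed by 1.26-fold and 1.20-fold. Of all genes tested, 4.82% differed as much between the control pools and 13.1% between the knockout pools. The log2 fold change of 0.12 had the widest interval of the set, −0.63 to 0.87 (limma adjusted p = 0.930). In FPKM, knockout library 1 and control library 2 were low in Zfp57 and Dnmt3b and also low in the trophectoderm, primitive endoderm and S-phase sums. Their median-of-ratios scaling factors over all genes were also lower, at 0.969 and 0.927, against 1.10 in knockout library 2 and 1.03 in control library 1. With that scaling the S-phase sum no longer splits the libraries this way. The part of these sums and of scaling was not tested.

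**Figure D3:**
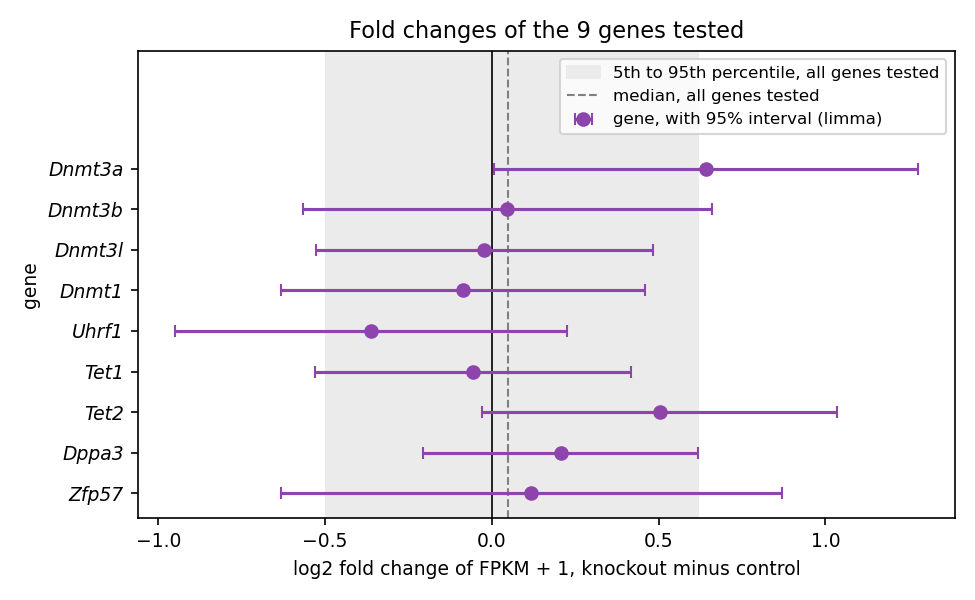
Log2 fold change of FPKM + 1, knockout minus control, with its 95% limma interval for the 9 genes tested, beside the median and the 5th to 95th percentile of all 9544 genes. Dnmt3a at 0.64 lies just beyond the right edge of the band, Tet2 at 0.50 and Uhrf1 at −0.36 lie inside it, and only the Dnmt3a interval leaves out 0.

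Genes that work with these enzymes leaned higher in knockout pools, without a call. Of 76 listed partner genes, 58 were tested, of which 42 had a positive and 16 a negative log2 fold change, where 56.0% of all genes tested were positive. Their median was 0.17, against 0.047 for all genes. None passed the threshold over all genes with the 4 libraries compared by group, and 9 higher and 1 lower had an unadjusted limma p under 0.05, where 7.75% and 3.33% of all genes did. Pcna and Zfp42 in this list are also S-phase and epiblast markers, and Nlrp5 is also an oocyte marker.

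The maintenance partners held genes of both signs. Of 6 tested, 5 were positive, with a median of 0.16. Hells, a chromatin remodeller needed for methylation of repeats, measured 8.01 and 7.82 FPKM in knockout libraries, against 4.81 and 3.60 FPKM in control libraries. Its groups did not overlap, and the log2 fold change was 0.79 (limma adjusted p = 0.305). Lig1, the replicative DNA ligase, measured 5.22 and 6.06 against 4.05 and 3.07 FPKM (log2 fold change 0.55, limma adjusted p = 0.466). Usp7, a deubiquitinase that stabilises Dnmt1 and Uhrf1, had a log2 fold change of 0.16 (limma adjusted p = 0.829).

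Partners of the de novo enzymes had 7 of 8 tested genes positive and a median of 0.26. Nsd1, a histone H3 lysine methyltransferase whose mark recruits Dnmt3a, measured 20.9 and 22.2 FPKM in knockout libraries, against 14.7 and 16.1 FPKM in control libraries. Its log2 fold change was 0.46 (limma adjusted p = 0.466). Setd2, whose mark in gene bodies recruits Dnmt3b, had 0.45, and Nsd2 had −0.35 (limma adjusted p = 0.598 and 0.653). Setd2 was 0.73 without knockout library 1 and 0.17 without knockout library 2, or 0.70 and 0.20 without control libraries 1 and 2. Nsd2 was −0.22 without knockout library 1 and −0.19 without control library 2.

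Demethylation and repair partners had 5 of 16 tested genes positive, 11 negative and a median of −0.053. Apex1, the most abundant gene in this group, measured 294 and 297 FPKM in knockout libraries, against 368 and 332 FPKM in control libraries. Its log2 fold change was −0.24 (limma adjusted p = 0.653). Smug1 (−0.12) also lay below both control libraries in both knockout libraries. Xrcc1, a scaffold of base excision repair, measured 10.9 and 12.7 FPKM in knockout libraries, against 6.98 and 5.90 FPKM in control libraries. Its log2 fold change was 0.78 (limma adjusted p = 0.296). Gadd45a, a stress-induced gene linked to repair, measured 1.65 and 3.20 against 0.916 and 1.06 FPKM (log2 fold change 0.75, limma adjusted p = 0.361), and its fold change was 1.08 without knockout library 1 and 0.42 without knockout library 2. Idh2, a source of the Tet cosubstrate 2-oxoglutarate, had 0.49 (limma adjusted p = 0.416). Tdg, the glycosylase that removes oxidised methylcytosine, measured 4.03 and 12.3 FPKM in knockout libraries, against 7.81 and 7.11 FPKM in control libraries, so the knockout pools lay on both sides of the controls.

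Imprint guardians had 12 of 14 tested genes positive and a median of 0.34. Khdc3, part of the maternal subcortical complex and the most abundant gene in this group, measured 789 and 768 FPKM in knockout libraries, against 587 and 487 FPKM in control libraries. Its log2 fold change was 0.54 (limma adjusted p = 0.305). Cbx1, a heterochromatin protein, measured 45.3 and 52.9 against 33.5 and 32.0 FPKM (log2 fold change 0.56, limma adjusted p = 0.346). Daxx, a histone H3.3 chaperone, had 0.52 (limma adjusted p = 0.505), or 0.30 without control library 2. Trim28, the corepressor recruited by Zfp57, measured 30.1 and 43.4 FPKM in knockout libraries, against 43.6 and 30.5 FPKM in control libraries. Like Zfp57 it was low in knockout library 1 and control library 2, and its log2 fold change was −0.014 (limma adjusted p = 0.993), or 0.020 with TPM scaling.

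Methyl donor genes had 10 of 11 tested genes positive and a median of 0.14. Bhmt, which remethylates homocysteine with betaine, measured 515 and 574 FPKM in knockout libraries, against 281 and 352 FPKM in control libraries. Its log2 fold change was 0.79 (limma adjusted p = 0.212), and it ran from 0.62 to 0.95 with a library left out. Shmt1, a serine hydroxymethyltransferase, measured 12.9 and 13.2 against 8.77 and 6.88 FPKM (log2 fold change 0.68, limma adjusted p = 0.346). Mat2a, which makes the methyl donor S-adenosylmethionine, measured 123 and 151 against 104 and 97.8 FPKM (log2 fold change 0.43, limma adjusted p = 0.437). Of 7 methyl-CpG readers 3 were tested, Mbd3, Mbd1 and Mbd2, with log2 fold changes of 0.45, 0.14 and 0.071 (limma adjusted p = 0.487, 0.872 and 0.950).

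**Figure D4:**
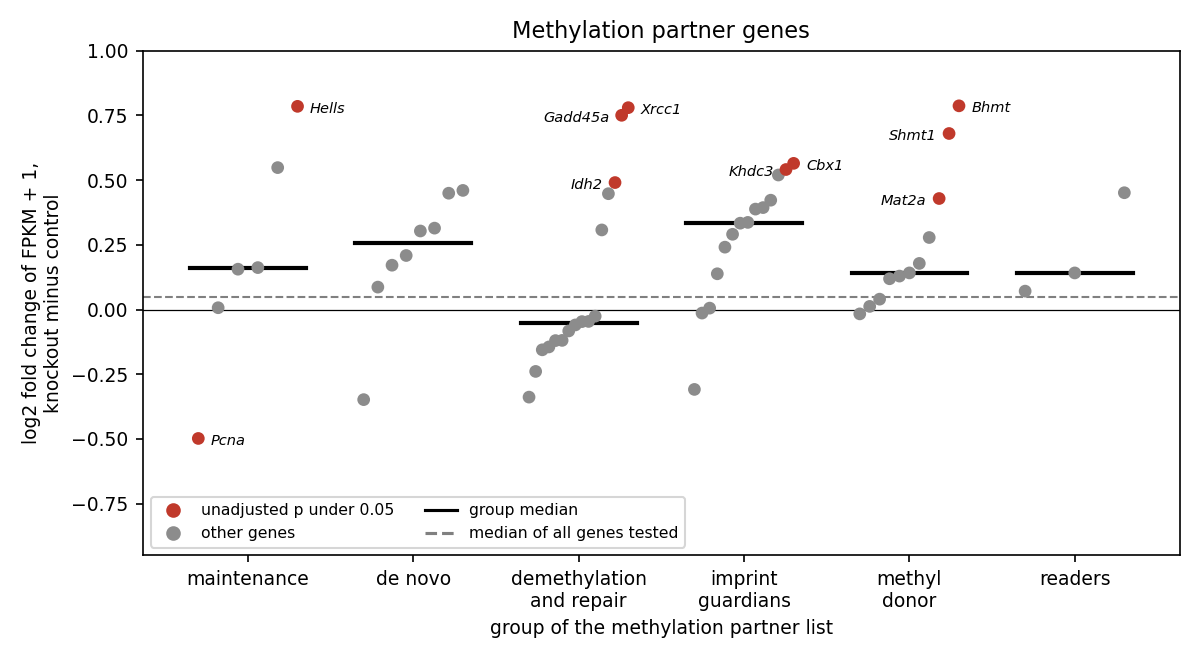
Log2 fold change of FPKM + 1, knockout minus control, of the 58 tested partner genes in 6 groups, with group medians as black lines and the median of all genes tested dashed. Genes with an unadjusted p under 0.05 are red and named, and none of them passed after adjustment over all genes in this fit. Group medians run from −0.053 in demethylation and repair to 0.34 in imprint guardians.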

How the data were processed

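The deposited table gives FPKM per library, computed by the authors and rounded to 3 decimals, per the file headers. Per the submitters' processing notes, the build was GRCm39 and the tools, without roles, were RSEM, StringTie 1.3.1, HISAT2 2.1.0, Bowtie2 2.2.8, DESeq2 and fastp 0.18.0. The authors' log2 fold change (knockout mean over control mean) and the authors' p-value and FDR columns are per the file headers, by a tool not given in the sources used here. This table holds no counts.

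Tests used limma 3.58.1 in R 4.3.3 with an intensity trend on log2(FPKM + 1), for genes averaging 1 FPKM or more, on the group alone, with 2 residual degrees of freedom. This scale understates changes of low genes. Adjustment ran over all genes tested. Sums and shares had exact permutation tests. Settings varied were the pseudocount, filter, scaling, trend, replicate block and each library left out.

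The members and gene lists were chosen with earlier results of these data known. All members were named, with the 3 partner genes of smallest p per group, Usp7, Trim28, Tdg, Hells and Mat2a, and the 3 most abundant methylated germline genes. Dnmt3c, Dazl, Apex1, Smug1 and single markers were picked with their values in view. Library depth was estimated in single-transcript genes over 1500 nt, with a 200 nt fragment assumed, and between 70.8% and 73.0% of low values came within 0.1 of a whole fragment number. Exons came from GENCODE M21 and promoters from RefSeq, both on GRCm38 and not the authors' build.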

Additional observations from a re-analysis of the deposited data

How the results depend on the processing

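None of the 9 tested members passed under any setting run. The count over all genes was 7, and it moved to 0 with no filter (1400 at an unadjusted p under 0.05), 0 with quantile normalization (1249), 13 with TPM scaling, 4 with median-of-ratios scaling and 3 without the intensity trend. With 1 library left out it lay between 15 and 205, in fits that leave 1 library in a group and assume it varies like the other group. The replicate block gave 38 calls and no call among members or partners, but it called Ywhaz (−1.21, limma adjusted p = 0.00246). Same-numbered libraries deviated in opposite directions (Pearson −0.24 over 9544 genes), so they were not treated as pairs. Pairing control 1 with knockout 2, added after seeing the data, gave 475 calls, 4 of them partner genes (Bhmt, Xrcc1, Khdc3 and Hells). Partner calls lay between 0 and 1 with a library left out, the 1 being Bhmt. With a library left out, Mat2a was as low as 0.28, Mbd3 0.30 and Usp7 0.0997. Tet2, Dnmt3a, Uhrf1 and Dppa3 kept their direction in every setting that tested them, and the other 5 did not. The cause was not tested. The filter, trend and block settings cannot change a fold change here. For Tet2, Dnmt3a and Uhrf1, whose groups did not overlap in FPKM, leaving out a library could not reverse it either. Dnmt3b was −0.021 with median-of-ratios scaling, −0.059 with quantile normalization, and −0.19 to 0.29 with a library left out. Dnmt3l was 0.011 with TPM scaling and −0.31 to 0.26 with a library left out. With a library left out, Dnmt1 ran from −0.26 to 0.086, Tet1 from −0.17 to 0.054, Zfp57 from −0.31 to 0.55, Trim28 from −0.27 to 0.24, Tdg from −0.75 to 0.65, Mbd1 from −0.024 to 0.31 and Mbd2 from −0.12 to 0.26. Trim28 was 0.020 with TPM scaling. The median of all genes was 0.13 without knockout library 1 and 0.12 without control library 1, against 0.047. Depth limits Tet3 most, at about 5.22 to 36.5 fragments.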

Other observations

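Genes of germ cells and early embryos whose promoters are methylated in somatic tissues were looked at as possible readouts of the mark. Of 18 listed, 14 were tested, 6 of them above and 8 below 0 in log2 fold change, where 56.0% of all genes were above. The median was −0.12, against 0.047 for all genes. None passed over all genes in limma. At an unadjusted limma p under 0.05 there was 1, the germline RNA-binding protein gene Dazl, where 11.1% of all genes had such a p. A share this close to the background is no result about the list. Dazl measured 1.84 and 2.69 FPKM in knockout libraries, against 0.515 and 1.61 FPKM in control libraries (log2 fold change 0.70, limma adjusted p = 0.433). The 3 most abundant were Tex19.1, Wfdc15a and Hormad1. Tex19.1, which restrains retrotransposons in germ cells, measured 183 and 283 FPKM in knockout libraries, against 300 and 236 FPKM in control libraries. Wfdc15a measured 209 and 115 against 155 and 195 FPKM. Hormad1, a meiotic chromosome axis protein gene, measured 103 and 45.6 against 63.1 and 102 FPKM. Groups overlapped for all 3, and Wfdc15a and Hormad1 were both high in knockout library 1 and control library 2. Taf7l was listed at 0 in every library.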
